A study of Mus musculus with 45 samples.

Results

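The second day of culture of mouse forelimb buds in 50 µM bisphenol S (BPS) was examined by setting 5 RNA libraries taken after 48 h against 5 taken after 24 h. These 10 libraries, of 45 in the series, were chosen by their labelled dose and time, and no measured value was used to choose them. Forelimbs of CD1 mouse embryos at gestation day 13 had been excised, pooled and kept in bottles with DMSO as vehicle or with 10 or 50 µM BPS, limbs of both sexes together, and poly-A RNA was sequenced. BPS is a bisphenol that has replaced bisphenol A in many products. The groups used were 50 µM BPS at 24 and 48 h and, for comparison, DMSO control and 10 µM BPS at the same times, with 5 libraries each and the same strain, age and vehicle in all 30. In the 5 libraries at 50 µM and 48 h the strain label runs from CD2 to CD6, which was read as CD1. Whether the libraries of a group stem from separate bottles or litters is not in the labels. The p-values thus reflect only how far the libraries differ, and this spread may be technical.

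The skeleton of the limb forms by endochondral ossification. Mesenchymal cells condense and become chondrocytes, which lay down a matrix of type II collagen and aggrecan, stop dividing, enlarge and switch to type X collagen, while cells around the cartilage become osteoblasts that deposit type I collagen and mineral-binding proteins. As a limb develops, muscle fibres form sarcomeres, the ectoderm that covers the limb turns into layered epidermis, and genes that patterned the early bud lose expression. An excised limb has no circulation.

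The 10 libraries held 16.0 to 22.2 M reads assigned to genes. The unit of every level is CPM, the reads of a gene divided by the reads of its library in M after TMM scaling, with means ± SD (n = 5). Changes are on the log2 scale, each ± SE, and come from edgeR's quasi-likelihood test. A gene rose or fell where the Benjamini-Hochberg adjusted p was below 0.05 over the whole table. Prrx1, a factor of limb mesenchyme, stood between 384 and 516 CPM in the 10 libraries, and the forelimb factor Tbx5 at 293 to 317 CPM at 24 h and 226 to 250.2 CPM at 48 h, with the hindlimb factors Tbx4 at 20.4 to 26.9 and Pitx1 at 2.28 to 4.91 CPM. Cartilage, muscle, epidermis, macrophage, endothelium and red cell markers were all detected, while Bglap, the osteocalcin gene of mature osteoblasts, stood at 0 to 0.665 CPM with 2 libraries at 0 reads. Library 5 of 24 h stood apart on the first 2 principal components (30.3% and 16.1% of the variance of 2000 genes), at -42.5 and 39.3 where the other 4 of its group lay at -20.3 to -10.3 and at -22.2 to -12.8. It also had the fewest genes with a read (22320 against 23433 to 24775) and the largest mitochondrial share (2.34% against 1.56% to 1.91%). Sex-linked RNA differed as well: library 1 of 24 h had 0 reads of the Y-linked genes Ddx3y, Eif2s3y and Uty, and library 5 of 48 h had Xist, the RNA of the inactive X chromosome, at 0.117 CPM where the other 9 had 514 to 2011 CPM. For these libraries the values stand against the description that limbs of both sexes were cultured together. The reason is not in the labels. In bulk RNA a change in the share of a cell type and a change of RNA per cell cannot be told apart, and this holds for every cell type below.

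Between 24 and 48 h, 4715 of 16559 tested genes changed (28.5%). Of these, 2408 rose (14.5%) and 2307 fell (13.9%). Scaled by library size alone, 40.4% of the 5100 calls were rises, against 51.1% here. Large changes went mostly upward, since 343 genes rose at least 2-fold (2.07%) and 78 fell at least 2-fold (0.471%). For 1744 genes the 5 libraries of 48 h lay above all 5 of 24 h (10.5%), and for 1628 they lay below (9.83%). The median log2 change of all genes was -0.01. Without the 3 libraries that stand apart in overall profile or sex balance, 4397 genes were called, 2271 of them rises.

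**Figure D1:**
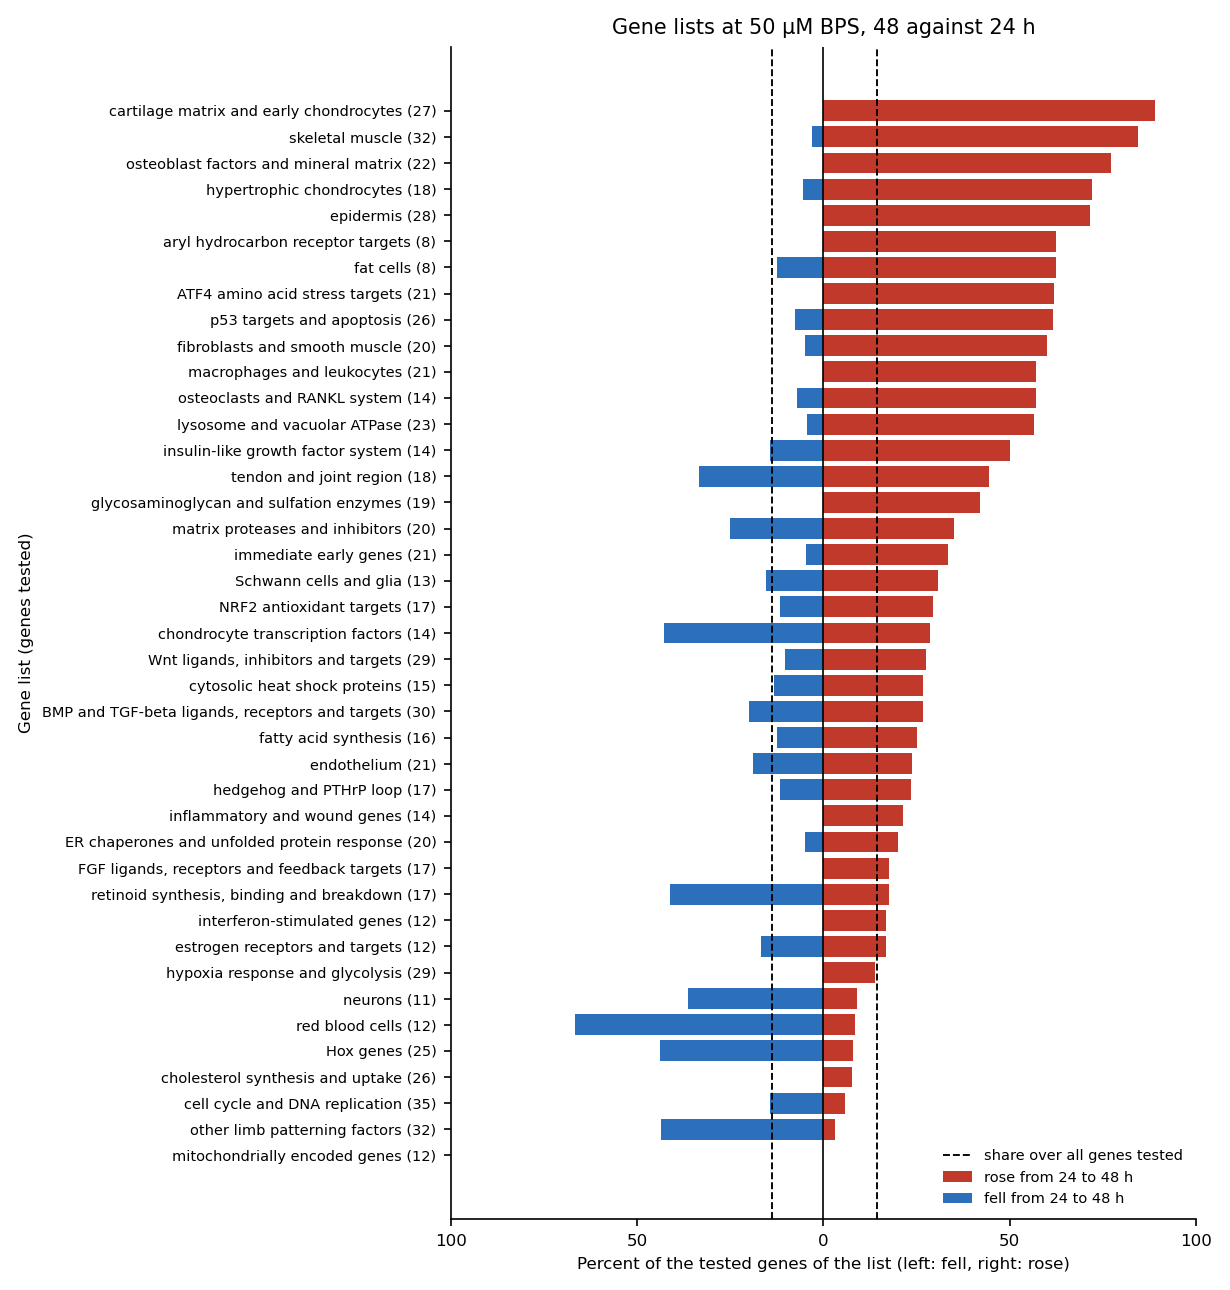
Share of the tested genes of each list that rose (red, to the right) or fell (blue, to the left) from 24 to 48 h at 50 µM BPS, in percent, for lists with 8 or more tested genes. Dashed lines mark the shares over all genes, 14.5% and 13.9%. Cartilage matrix, muscle and osteoblast lists lie at the top, and limb patterning factors near the bottom with 14 of 32 genes falling.

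Cartilage matrix rose almost as a whole. In the list of cartilage matrix and early chondrocyte genes 24 of 27 tested genes rose and 0 fell, with a median log2 change of 0.70, and Matn4, Mia and Papss2 did not pass. Col2a1 (ENSMUSG00000022483, mm10 chromosome 15, 97975602 to 98004695, minus strand) encodes type II collagen and had 6060.0, 6301, 6206, 6541 and 5403 CPM at 24 h and 10229, 10269.5, 9137, 10349 and 10624 CPM at 48 h. The lowest library at 48 h was far above the highest at 24 h (log2 change 0.73 ± 0.057, adjusted p = 3.64e-09). Acan, the aggrecan gene, went from 403 ± 45.4 to 761 ± 50.6 CPM (log2 change 0.91 ± 0.068, adjusted p = 1.01e-08). Matn1, a matrilin that links matrix fibrils, showed 494, 476, 453, 467 and 372 CPM at 24 h and 947, 946, 856, 971 and 1002 CPM at 48 h. Its groups did not overlap, with a change of 2.08-fold (adjusted p = 1.03e-10). Epyc, a small leucine-rich proteoglycan of growth cartilage, rose by 1.16 ± 0.08, Prelp, a related matrix protein, by 0.83 ± 0.056, and Susd5 by 0.72 ± 0.054 on the log2 scale. The enzymes that build and sulfate glycosaminoglycan chains rose in fewer cases: 8 of 19 tested genes rose and 0 fell, with Xylt1, which starts the chains, at 0.65 and Chst11, a chondroitin sulfotransferase, at 0.51.

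Transcription factors of the chondrocyte moved in both directions. Of their list 4 of 14 tested genes rose and 6 fell, where 14.5% of all genes rose and 13.9% fell. The median of the list was -0.13. Sox9, on which chondrocyte identity depends, had 479, 501, 504, 500.3 and 535 CPM at 24 h and 458, 407, 426, 463 and 410.3 CPM at 48 h. All 5 libraries of 48 h were below the 5 of 24 h, and the gene fell by 0.22 on the log2 scale (adjusted p = 0.00178) while Col2a1 rose. Trps1, a zinc finger factor that restrains hypertrophy, fell from 261 ± 23.8 to 202 ± 9.12 CPM, and Arid5b, a partner of Sox9, fell from 80.3 ± 5.09 to 65.6 ± 3.32 CPM. Foxa2 and Foxa3, forkhead factors of hypertrophic chondrocytes, both rose, by 2.02 ± 0.37 and 0.57 ± 0.1. Foxa2 was scarce, at 0.114 to 1.10 CPM at 24 h and 1.39 to 2.96 CPM at 48 h. Runx2, which drives both hypertrophy and bone, was at 64.8 ± 3.28 CPM at 24 h and 68.1 ± 0.626 CPM at 48 h and did not pass (adjusted p = 0.322).

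Hypertrophic genes rose in 13 of 18 tested cases and fell in 1. Col10a1, the collagen that marks hypertrophic chondrocytes (ENSMUSG00000039462, mm10 chromosome 10, 34389981 to 34397085, plus strand), stood at 37.1, 14.9, 10.2, 12.4 and 10.9 CPM at 24 h and 81.3, 89.0, 118, 143 and 147 CPM at 48 h. At 24 h library 1 was more than any other of its group, yet the groups did not overlap, and the mean rose 6.69-fold (log2 change 2.74 ± 0.4, adjusted p = 0.00101). Enpp1, which makes pyrophosphate, rose from 41.3 ± 3.19 to 59.1 ± 3.70 CPM, and Alpl, the phosphatase that removes it, from 26.1 ± 2.84 to 69.0 ± 7.68 CPM (log2 changes 0.51 and 1.40). Adamts1, a protease, was the 1 member that fell, by 0.29. Mmp13, the collagenase of the last hypertrophic cells, was near the floor at 0.459 to 0.648 CPM at 24 h and 0.484 to 1.71 CPM at 48 h and did not pass (adjusted p = 0.211), and Vegfa, Phex and Slc37a2 did not pass either.

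**Figure D2:**
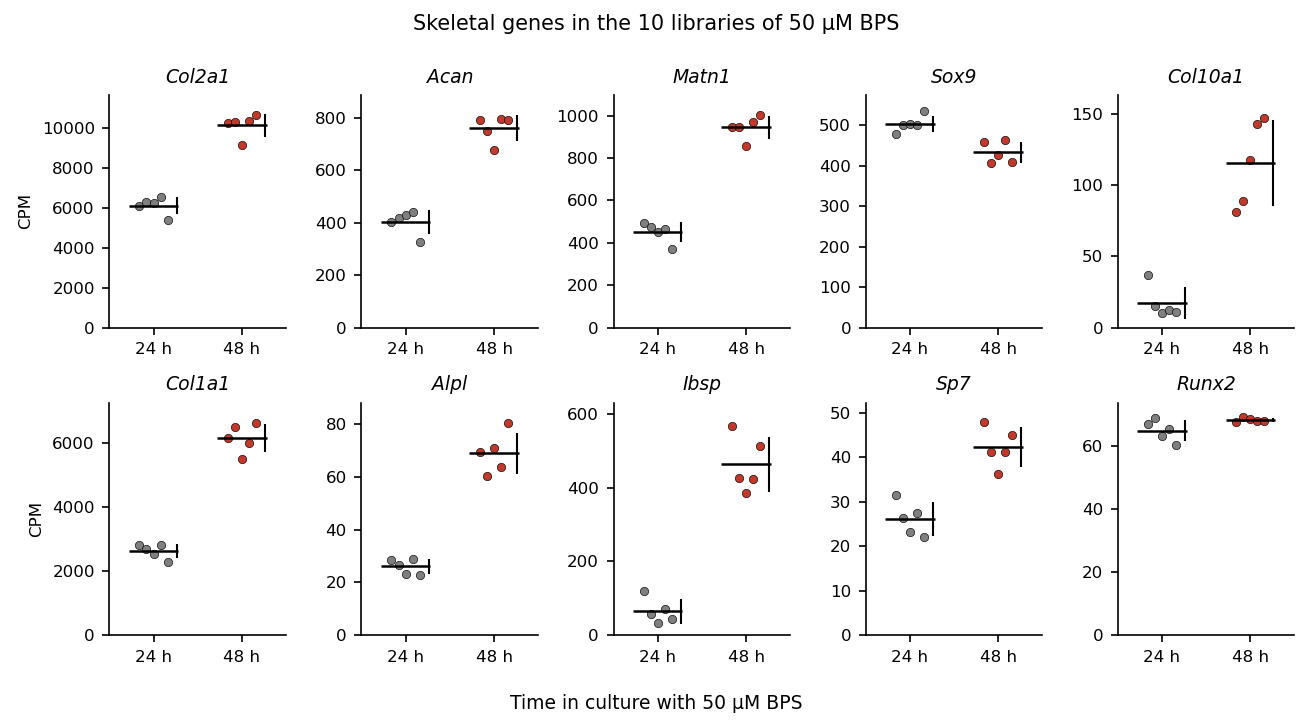
CPM of 10 skeletal genes in each library of 50 µM BPS at 24 h (grey) and 48 h (red), on axes that start at 0. Points are libraries 1 to 5 from left to right, horizontal lines the means and vertical lines the SD (n = 5). Matrix genes such as Col2a1 and Col1a1 lie apart between the times, Sox9 lies lower at 48 h, and the groups of Runx2 overlap.

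The bone list had a larger median change than the hypertrophic list, 0.88 against 0.55. In this list of osteoblast factors and mineral matrix 17 of 22 tested genes rose and 0 fell, and the median was 0.75 without library 5 of 24 h. Ibsp, Spp1, Alpl, Sp7 and Phex are in both lists, so their changes do not separate bone from hypertrophic cartilage. Ibsp, the bone sialoprotein that nucleates mineral (ENSMUSG00000029306, mm10 chromosome 5, 104299171 to 104311469, plus strand), stood at 119.7, 58.1, 31.3, 69.5 and 43.5 CPM at 24 h and 569, 428, 386, 424 and 515 CPM at 48 h. Every library of 48 h was above every library of 24 h, and the fold was 7.19 (log2 change 2.85 ± 0.35, adjusted p = 0.000391). Col1a1, the main collagen of bone (ENSMUSG00000001506, mm10 chromosome 11, 94936224 to 94953042, plus strand), stood at 2825, 2689, 2544, 2808 and 2296 CPM at 24 h and 6179.6, 6499.8, 5495, 6009.7 and 6645 CPM at 48 h. That is a rise of 2.34-fold with no overlap (adjusted p = 7.52e-12). Its partner chain Col1a2 rose from 2365 ± 122 to 4159.8 ± 321 CPM and Sparc, the matrix protein osteonectin, from 645 ± 47.4 to 1299 ± 107 CPM. Sp7, the osteoblast factor osterix, rose from 26.1 ± 3.76 to 42.4 ± 4.49 CPM (log2 change 0.69 ± 0.089, adjusted p = 6.14e-06). Spp1, which encodes osteopontin, rose by 1.78 ± 0.41, and Dmp1, a phosphoprotein of osteocytes, by 2.19 ± 0.55 at 0 to 1.97 CPM at 24 h and 2.65 to 5.38 CPM at 48 h.

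Genes of bone resorption and matrix breakdown moved less uniformly. Over all genes 14.5% rose and 13.9% fell. In the osteoclast list 8 of 14 tested genes rose and 1 fell. Ctsk, the collagen-cutting cathepsin K, rose from 28.8 ± 2.87 to 44.4 ± 6.05 CPM, Csf1, a growth factor for osteoclast precursors, from 17.3 ± 4.24 to 26.7 ± 1.57 CPM, and Mmp9 from 30.9 ± 3.35 to 37.9 ± 1.33 CPM. Nfatc1, a factor of osteoclast formation that is also active in other cells, fell (log2 change -0.41 ± 0.049, adjusted p = 1.37e-06). Among matrix proteases and their inhibitors 7 of 20 tested genes rose and 5 fell. Timp1, an inhibitor of metalloproteinases, stood at 7.15, 5.82, 4.95, 6.71 and 5.47 CPM at 24 h and 15.5, 19.4, 18.1, 19.1 and 16.4 CPM at 48 h. The lowest library of 48 h was more than the highest of 24 h by a wide margin, a 2.94-fold rise (adjusted p = 8.51e-10). Timp2, Mmp2 and Mmp14, which act together at the cell surface, each rose by between 0.31 and 0.33 on the log2 scale. In the lysosome list 13 of 23 tested genes rose and 1 fell, among them the cathepsins Ctsl (0.49) and Ctsd (0.48).

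Signals of the growth plate changed by smaller amounts. In the hedgehog and PTHrP loop, in which Ihh from early hypertrophic cells holds back its own source through PTHrP and the receptor Pth1r, 4 of 17 tested genes rose and 2 fell. Over all genes 14.5% rose and 13.9% fell. Ihh stood at 64.6, 55.8, 47.4, 49.9 and 46.5 CPM at 24 h and 69.0, 58.7, 60.5, 67.6 and 61.4 CPM at 48 h, so that library 1 of 24 h lay among the 48 h values, and it passed (adjusted p = 0.0169). Pth1r rose by 0.21. Ptch1, the receptor and target of the pathway, was at 264 ± 17.9 CPM at 24 h and 273 ± 15.9 CPM at 48 h and did not pass (adjusted p = 0.618). The pathway factors Gli2 and Gli3 fell from 179 ± 7.85 to 126 ± 7.29 CPM and from 269 ± 16.4 to 165 ± 6.39 CPM, while Gli1, a direct target, was at 155 ± 9.0 CPM at 24 h and 172 ± 9.71 CPM at 48 h (adjusted p = 0.0218). In the fit of 30 libraries 1 hedgehog gene rose where 4 rose here, and the calls of Gli1, Ihh and Pth1r were lost. That of Gli1 was also lost without library 2 of 24 h and without libraries 4 or 5 of 48 h.

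Of the BMP and TGF-beta genes 8 of 30 tested genes rose and 6 fell, where 14.5% of all genes rose and 13.9% fell. Gdf5, the ligand of forming joints, fell from 90.5 ± 11.5 to 55.8 ± 4.70 CPM and Grem1, a secreted BMP inhibitor, from 37.9 ± 2.37 to 27.2 ± 0.998 CPM. Tgfb1 rose from 24.6 ± 3.79 to 46.3 ± 6.48 CPM, and Ltbp2, a matrix protein related to the binding proteins of its ligands, rose by 0.81. In the Wnt list 8 of 29 tested genes rose and 3 fell. The ligand Wnt5a and the inhibitor Sfrp2 fell by 0.32 and 0.39, while the feedback gene Nkd1 and the inhibitor Wif1 rose by 0.59 and 0.33.

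Of 17 FGF genes 3 rose and 0 fell, where 14.5% of all genes rose and 13.9% fell. Fgfr3, the receptor that slows chondrocyte division, stood at 248, 279.7, 269.8, 276 and 223 CPM at 24 h and 373, 344, 332, 361 and 323 CPM at 48 h. Groups did not overlap (log2 change 0.42 ± 0.058, adjusted p = 1.02e-05). Fgf7 and Fgf2, which encode ligands, were the other rises. Of 17 retinoid genes 7 fell and 3 rose. Stra6, the receptor that takes up retinol, fell from 22.8 ± 2.24 to 9.59 ± 1.65 CPM (log2 change -1.26 ± 0.11, adjusted p = 1.15e-08), and Rdh10, a retinol oxidizing enzyme, fell by 0.47. Rbp4, the secreted carrier of retinol, rose from 10.4 ± 0.734 to 19.7 ± 1.47 CPM. In the insulin-like growth factor system 7 of 14 tested genes rose and 2 fell: the binding proteins Igfbp7 and Igfbp3 rose by 1.19 and 0.36, Pappa2, a protease that cuts such proteins, by 1.15, and the imprinted RNA H19 from 12739.8 ± 914 to 16474 ± 586 CPM.

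Among patterning genes more fell than rose, though 12 of 25 Hox genes and 17 of 32 other factors did not pass. Of the Hox genes 2 of 25 tested genes rose and 11 fell, with a median of -0.19, and of the other limb patterning factors 1 of 32 tested genes rose and 14 fell. Hoxd12, a Hox gene of the distal limb, stood at 142, 152, 165, 145 and 157 CPM at 24 h and 90.1, 83.2, 94.4, 86.6 and 92.5 CPM at 48 h. The groups were far apart (log2 change -0.77 ± 0.051, adjusted p = 3.51e-10). The other digit region genes Hoxd13 and Hoxa13 fell by 0.54 and 0.61. Tbx18, Lhx9 and Lmx1b, the last of which sets dorsal identity, fell by 0.75, 0.72 and 0.58. The forelimb factor Tbx5 fell by 0.36. Over the whole table, transcription factor genes were called down more often than up: of 1101 tested, 127 rose (11.5%) and 295 fell (26.8%). Falls were 39 of 105 for homeobox genes (37.1%), 16 of 41 for HMG box genes (39.0%) and 122 of 473 for C2H2 zinc finger genes (25.8%), where 13.9% of all genes fell. The share that fell also varied with level. It was 2.46% at a mean of 0 to 1 CPM, 7.07% at 1 to 10, 15.6% at 10 to 100 and 27.4% at 100 CPM or more. These families were not compared with other genes of equal level.

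The 12 largest falls, among named genes with a mean of at least 1 CPM over the 10 libraries, held 4 red cell genes and several genes known from early cells and neurons. Lin28b, an RNA-binding protein that blocks maturation of let-7 microRNAs (ENSMUSG00000063804, mm10 chromosome 10, 45376620 to 45486395, minus strand), stood at 2.29, 3.67, 2.78, 2.41 and 4.28 CPM at 24 h and 1.21, 0.926, 0.567, 0.877 and 1.23 CPM at 48 h. Its groups did not overlap and it fell by 1.68 on the log2 scale (adjusted p = 3.29e-05). L1td1, an RNA-binding protein of pluripotent cells, fell by 1.88, at 2.11 to 5.42 CPM at 24 h and 0.703 to 1.48 CPM at 48 h. Astn1, an adhesion protein first known from neurons, fell from 31.4 ± 2.55 to 12 ± 1.67 CPM (log2 change -1.39 ± 0.092, adjusted p = 3.51e-10). The other falls outside the red cell list were Rab3c, a vesicle GTPase, at -2.19, Siah3 at -1.88, Mmrn1, a multimerin of platelets and vessels, at -1.52, Tubb3, a neuronal tubulin, at -1.45, and Pls1, an actin bundler, at -1.41.

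Muscle genes rose as a group. In the muscle list 27 of 32 tested genes rose and 1 fell. Tnnt3, a fast troponin of the sarcomere, stood at 79.5, 75.5, 65.0, 73.7 and 59.9 CPM at 24 h and 151, 156, 155, 159 and 163 CPM at 48 h. All libraries of 48 h were far above all of 24 h, 2.21-fold on average (adjusted p = 1.39e-11). Acta1, skeletal actin, rose from 461 ± 43.5 to 845 ± 37.0 CPM, while the early factors Pax3, Myf5 and Myod1 did not pass. Pax7 was the 1 member that fell, from 18.7 to 13.5 CPM (log2 change -0.47 ± 0.098, adjusted p = 0.000894). Over all genes 14.5% rose and 13.9% fell, and in the tendon and joint list 8 of 18 tested genes rose and 6 fell. The falls were Gdf5 (-0.70), Creb5 (-0.53), Prg4 (-0.53), Sfrp2 (-0.39), Erg (-0.33) and Mkx (-0.20), and Scx did not pass. Col22a1, a collagen of the muscle and tendon junction, rose from 18.1 ± 2.68 to 57.6 ± 3.65 CPM, and Cilp, a protein of joint cartilage, from 4.06 ± 0.858 to 13.3 ± 1.84 CPM (log2 changes 1.66 and 1.71). Col14a1, a fibril-associated collagen, rose by 1.08. In the fibroblast and smooth muscle list 12 of 20 tested genes rose and 1 fell, among them the 3 chains of type VI collagen, Col6a1, Col6a2 and Col6a3, at 0.81, 0.81 and 0.57.

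Few cell cycle genes rose and their falls were near the share over all genes, while most p53 targets rose. Of 35 cell cycle genes 2 rose and 5 fell, a median of 0.00, where 14.5% of all genes rose and 13.9% fell. Mki67, a marker of cycling cells, was at 152 ± 7.60 CPM at 24 h and 156 ± 13.7 CPM at 48 h (adjusted p = 0.691), and Ccnd1 and Ccnd2, the D-type cyclins, fell by 0.26 and 0.33. In the list of p53 targets and apoptosis genes 16 of 26 tested genes rose and 2 fell, and in DMSO control 15 rose and 2 fell. Cdkn1a, the cyclin-dependent kinase inhibitor p21 (ENSMUSG00000023067, mm10 chromosome 17, 29090976 to 29100727, plus strand), stood at 96.9, 93.9, 99.9, 97.6 and 89.0 CPM at 24 h and 187, 195, 192, 199 and 212 CPM at 48 h. Spread within each time was small and the rise was 2.06-fold (log2 change 1.04 ± 0.046, adjusted p = 1.87e-12). Eda2r, a receptor of the TNF receptor family, rose from 4.21 ± 0.672 to 17.3 ± 2.47 CPM, Ccng1 from 71.6 ± 2.85 to 142 ± 18.6 CPM and Phlda3 from 23.5 ± 2.67 to 52.3 ± 7.30 CPM. The gene of p53 itself, Trp53, did not pass.

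The largest rises included many genes of the covering epidermis. In its list 20 of 28 tested genes rose and 0 fell, with a median of 1.2, and the summed level of its genes ran over 247 to 470.0 CPM at 24 h and 789 to 1127 CPM at 48 h. Of the 12 largest rises among named genes with a mean of at least 1 CPM, 4 (Krt1, Krt10, Krt77 and Sprr1b) were in this list. Krt1 and Krt10, the keratin pair of the layers above the basal layer, are shown by their values. Krt1 stood at 23.3, 18.0, 9.02, 4.59 and 11.5 CPM at 24 h and 161, 219.7, 124, 149.7 and 249.8 CPM at 48 h. Krt10 (ENSMUSG00000019761, mm10 chromosome 11, 99385254 to 99389364, minus strand) stood at 18.1, 13.1, 9.85, 8.0 and 12.1 CPM at 24 h and 153, 183, 119, 118 and 211 CPM at 48 h. Each library of 48 h lay several times above the highest of 24 h, a 13.5-fold and a 12.7-fold rise (adjusted p = 0.000157 and 1.37e-05). Krt5 and Krt14, the pair of the basal layer, gave 97.7, 81.4, 73.6, 52.0 and 35.8 CPM at 24 h and 113, 180.4, 174, 133 and 169.6 CPM at 48 h for Krt5 and 115, 84.9, 95.3, 69.2 and 59.0 CPM at 24 h and 70.4, 127, 120.0, 96.6 and 125 CPM at 48 h for Krt14. Krt5 rose (log2 change 1.17 ± 0.27, adjusted p = 0.0117), whereas the groups of Krt14 overlapped and it did not pass (adjusted p = 0.304).

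Among the other largest rises were genes with hardly a read at 24 h. Calm4, a calmodulin-like protein of maturing keratinocytes, had 3 reads over the 5 libraries at 24 h and 449 at 48 h, a ratio of 154 with a counting interval of 52.3 to 749. Its levels were 0.0917, 0, 0.0463, 0 and 0 CPM at 24 h and 4.72, 5.74, 1.58, 3.69 and 8.32 CPM at 48 h. Sdr16c6, a dehydrogenase, had 8 and 312 reads, and Them5, an acyl-CoA thioesterase, had a ratio of 36.0 (17.2 to 90.4). Krt77 rose from 0.324 ± 0.438 to 15.3 ± 8.42 CPM, though limma-voom did not call it, and library 3 of 48 h was its lowest at that time. Casp14, the protease of the cornified layer, rose by 3.75 ± 0.49, Dmkn, a secreted protein of upper keratinocytes, by 4.17 ± 0.57, and Pla2g2f, an epidermal phospholipase, by 3.73 ± 0.42. Stfa3, a cysteine protease inhibitor with near-identical neighbours whose reads may be shared, rose from 0.776 ± 0.456 to 14.8 ± 7.55 CPM, and Svop, a transporter-like vesicle protein, from 0.154 ± 0.0964 to 2.33 ± 0.808 CPM.

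Red cell genes fell. In their list 1 of 12 tested genes rose and 8 fell, with a median of -1.17, and the summed level ran over 1353 to 2057 CPM at 24 h and 774 to 887 CPM at 48 h. Slc4a1, the anion exchanger band 3 of the red cell membrane (ENSMUSG00000006574, mm10 chromosome 11, 102348824 to 102366203, minus strand), stood at 5.73, 7.76, 9.81, 7.61 and 7.53 CPM at 24 h and 2.00, 1.62, 1.70, 1.89 and 0.762 CPM at 48 h. No library of 48 h reached a library of 24 h, and the level was 4.80-fold lower (log2 change -2.26 ± 0.2, adjusted p = 2.19e-08). Alas2, which starts heme synthesis in red cells, fell from 9.28 ± 1.55 to 2.65 ± 0.374 CPM. Hbb-y, an embryonic globin, fell from 759 ± 122 to 359 ± 34.8 CPM, Hbb-bh1, another, from 10.4 ± 2.26 to 3.35 ± 0.883 CPM, and the adult globin Hbb-bs from 93.7 ± 30.6 to 39.4 ± 8.96 CPM. Globin copies resemble each other closely, so reads may have been split between them. Tfrc, the transferrin receptor of many dividing cells, was the 1 member that rose, by 0.27.

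**Figure D3:**
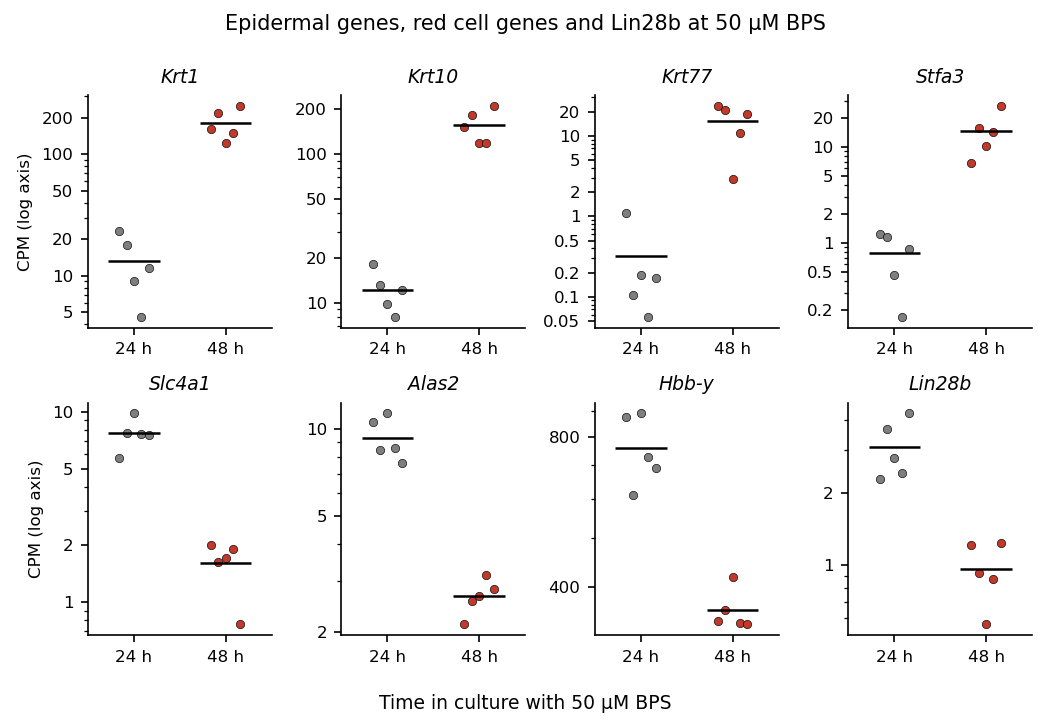
CPM on a log axis of 4 epidermal genes, 3 red cell genes and Lin28b in each library of 50 µM BPS at 24 h (grey) and 48 h (red). Points are libraries 1 to 5 from left to right and lines the means. All 8 genes lie apart between the times, Krt77 by a narrow gap (1.10 against 2.90 CPM) and Krt10 by a wide one.

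Promoters of genes that moved far are printed to show the letters upstream of genes at the ends of this change: 2 skeletal and 1 epidermal gene that rose and 1 globin that fell. Each is the 250 bases before the RefSeq start in GRCm38.p6, the same assembly as mm10, read 5′ to 3′ on the gene's strand, and capitals mark 4 motifs on either strand, namely the TATA box core TATAAA, the CAAT box core CCAAT, the palindromic E-box CAGCTG and the GATA factor core AGATAA.
Ibsp, chr5:104299037-104299286, plus strand: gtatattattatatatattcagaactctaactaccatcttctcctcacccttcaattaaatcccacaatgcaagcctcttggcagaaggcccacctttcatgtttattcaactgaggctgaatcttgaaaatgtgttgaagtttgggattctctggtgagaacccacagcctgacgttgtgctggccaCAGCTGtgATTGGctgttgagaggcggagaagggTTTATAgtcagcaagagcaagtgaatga
Col10a1, chr10:34389731-34389980, plus strand: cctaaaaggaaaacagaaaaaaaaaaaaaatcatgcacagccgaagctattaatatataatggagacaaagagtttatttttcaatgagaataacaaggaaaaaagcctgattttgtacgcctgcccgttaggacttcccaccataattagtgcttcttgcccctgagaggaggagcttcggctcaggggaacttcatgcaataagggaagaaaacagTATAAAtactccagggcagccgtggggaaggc
Krt10, chr11:99389365-99389614, minus strand: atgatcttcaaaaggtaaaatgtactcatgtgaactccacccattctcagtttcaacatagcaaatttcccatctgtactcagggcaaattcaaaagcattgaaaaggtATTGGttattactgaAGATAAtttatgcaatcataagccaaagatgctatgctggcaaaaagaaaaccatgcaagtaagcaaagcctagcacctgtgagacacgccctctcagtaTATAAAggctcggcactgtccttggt
Hbb-bs, chr7:103827929-103828178, minus strand: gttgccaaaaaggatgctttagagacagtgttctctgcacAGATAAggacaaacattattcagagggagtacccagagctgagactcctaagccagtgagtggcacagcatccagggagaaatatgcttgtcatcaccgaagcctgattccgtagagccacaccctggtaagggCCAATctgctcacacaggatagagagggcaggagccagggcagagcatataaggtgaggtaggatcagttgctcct
The TATAAA motif starts 28 bases before the start of Ibsp (there on the opposite strand), 32 before Col10a1 and 26 before Krt10. The CCAAT motif lies 54 bases before Ibsp on the opposite strand and 76 before Hbb-bs, and AGATAA 126 before Krt10 and 210 before Hbb-bs. For Ibsp and Hbb-bs the gene start in the deposited tables lies inside the printed window, upstream of the RefSeq start, so part of each window is within the gene as deposited. CAGCTG lies 62 before Ibsp, and another CCAAT 141 before Krt10 on the opposite strand.

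Promoters could be matched for 11716 of the tested genes. TATAAA was present in 6.69% of these, 8.32% of 1803 that rose, 11.6% of 224 that rose at least 2-fold, 6.90% of 1767 that fell and 15.7% of the 51 that fell at least 2-fold. TGANTCA, the core read by AP-1 factors, was in 4.24% of all, 6.32% of those that rose, 12.5% of those that rose at least 2-fold, 2.77% of those that fell and 3.92% of those that fell at least 2-fold. AGATAA was in 5.74% of all, 5.6% of those that rose, 8.48% of those that rose at least 2-fold, 4.75% of those that fell and 19.6% (10 of 51) of those that fell at least 2-fold. Other motifs were counted too, given here for all, for those that rose at least 2-fold and for those that fell at least 2-fold. CCAAT was in 35.9%, 28.6% and 37.3%, and CAGCTG in 12.2%, 18.8% and 13.7%. The letters ACAAAG were in 11.7%, 13.4% and 29.4% (15 of 51), and TGTGGT in 10.5%, 12.9% and 13.7%. These are counts of letters in a fixed window with no test, and a match is not a bound site.

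Genes of other cell types were mixed, where 14.5% of all genes rose and 13.9% fell. Macrophage and leukocyte genes rose in 12 of 21 cases and fell in 0, with the complement genes C1qa and C1qb at 0.82 and 0.72 and a summed level of 192 to 229 CPM at 24 h and 248 to 379 CPM at 48 h. Of the endothelium list 5 of 21 tested genes rose and 4 fell, and without the 3 libraries that stand apart 2 rose, and 3 without library 2 of 48 h alone. Aplnr, the apelin receptor of new vessels, fell from 7.18 ± 0.963 to 2.78 ± 0.579 CPM, while the defining markers Pecam1 and Cdh5 did not pass. Of 11 neuron genes 4 fell and 1 rose, and of 13 glial genes 4 rose and 2 fell, with S100b, also made by chondrocytes, at 1.15. Among fat cell genes 5 of 8 rose and 1 fell, with the factor Cebpa from 14.5 ± 0.895 to 27.9 ± 1.48 CPM, and without library 2 of 48 h 3 rose. The mast cell protease Cma1 rose by 1.99 ± 0.6 at 0.0560 to 1.15 CPM at 24 h and 0.786 to 3.69 CPM at 48 h, and the other 4 mast cell genes tested and all 4 melanocyte genes did not pass. The call of Cma1 was lost without library 3 of 24 h and without libraries 2 or 5 of 48 h.

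Stress and hormone pathways are often studied with bisphenols. Targets of ATF4, the factor of the amino acid stress response, rose in 13 of 21 cases and fell in 0. In DMSO control over the same interval 6 rose and 0 fell of 21, and at 10 µM 12 rose and 0 fell. Median log2 changes were 0.32 at 50 µM, 0.17 in control and 0.30 at 10 µM. In the test of the difference from control described below, 1 of 21 genes had an unadjusted p below 0.05. The median difference was 0.13, and no gene passed after adjustment. Atf5 stood at 84.5, 81.7, 79.1, 86.9 and 76.9 CPM at 24 h and 185, 158, 146, 161 and 141 CPM at 48 h. The times lay far apart (log2 change 0.95 ± 0.061, adjusted p = 3.69e-10), and Atf4 itself rose by 0.44 and Sesn2 by 0.60. Of the ER chaperone list 4 of 20 tested genes rose and 1 fell, with Hspa5, its main chaperone, at 751 ± 29.0 CPM at 24 h and 754 ± 42.0 CPM at 48 h (log2 change 0.00). NRF2 targets gave 5 rises and 2 falls of 17, and heat shock genes 4 and 2 of 15. Estrogen receptor genes and targets gave 2 and 2 of 12, and Esr1 was at 0.688 to 1.31 CPM at 24 h and 0.646 to 1.26 CPM at 48 h (adjusted p = 0.909). For these lists the shares over all genes were 14.5% rising and 13.9% falling.

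Cyp1a1, which the aryl hydrocarbon receptor induces, had 3.53, 2.83, 2.68, 2.13 and 2.57 CPM at 24 h and 4.78, 6.35, 5.49, 5.03 and 7.85 CPM at 48 h. All 48 h values were above all 24 h values, a 2.13-fold rise (log2 change 1.09 ± 0.17, adjusted p = 4.92e-05). Its relative Cyp1b1 rose from 28.1 ± 2.67 to 48.8 ± 5.94 CPM and the receptor Ahr from 9.70 ± 0.939 to 13.7 ± 2.22 CPM. In that list 5 of 8 tested genes rose and 0 fell, and in DMSO control 3 rose and 0 fell. Median log2 changes were 0.51 and 0.25, and the median of the differences from control by gene was -0.01. Hypoxia and glycolysis genes rose in 4 of 29 cases (P4ha1, Aldoa, Gpi1 and Tpi1), near the background of 14.5%. That count ran from 2 to 12 when single libraries were left out, with 12 without library 2 of 24 h and 2 without library 1, 3, 4 or 5 of 24 h or library 2, 3 or 5 of 48 h, and was 0 without the 3 libraries that stand apart.

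Of the genes of cholesterol synthesis and uptake 2 of 26 rose and 0 fell, where 14.5% of all genes rose and 13.9% fell. The median of the list was -0.01. Hmgcs1, an early enzyme of the pathway, stood at 193, 194, 203, 205 and 234 CPM at 24 h and 236, 208, 191, 193 and 163 CPM at 48 h, and the groups overlapped. In DMSO control over the same interval 0 rose and 11 fell of 26, with a median of -0.21, and Hmgcs1 changed by -0.29 (adjusted p = 0.0103).

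The same interval in DMSO control and at 10 µM BPS gave the frame for these changes, with no library in common. Control at 48 h was the most uneven group. Its chi-square per degree of freedom reached 36.1 between libraries 1 and 3, against at most 16.2 for a pair in any other group. The summed level of the cartilage list ran over 17078 to 26611 CPM there and 21001 to 23888 CPM at 50 µM and 48 h. Control calls and interactions with DMSO both rest on this group. In control 2670 of 16694 genes were called (16.0%), 1576 higher (9.44%) and 1094 lower (6.55%). At 10 µM the calls were 4013 of 16638 (24.1%). Of the calls at 50 µM, 2222 were also calls in control, 47.1% of the 50 µM calls and 83.2% of the control calls, and all 2222 had the same direction. The 10 µM calls shared 3079 with 50 µM, 65.3% and 76.7%. Across 16317 genes the log2 changes at 50 µM and in control had a Pearson r of 0.814, and across 16312 genes those at 50 and 10 µM had 0.84. Genes are not independent replicates, so these describe the libraries only. The biological coefficient of variation was 0.0915 at 50 µM, 0.118 in control and 0.101 at 10 µM. In the fit of 30 libraries, which shares its estimate of the spread, the calls were 4203 at 50 µM, 3868 in control and 3948 at 10 µM. Numbers of calls from the separate fits thus cannot be compared as sizes of change, and the cause of their gap was not tested.

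The changes of single genes stand side by side as follows. Col2a1 changed by 0.73 at 50 µM, 0.76 at 10 µM and 0.66 in control, Ibsp by 2.85, 2.60 and 2.55, Col10a1 by 2.74, 2.73 and 2.71, and Krt1 by 3.75, 3.66 and 3.31. In control the cartilage list had 23 rose and 0 fell of 27, the osteoblast list 14 rose and 0 fell of 22, muscle 19 rose and 0 fell of 32, epidermis 14 rose and 0 fell of 28 and red cells 1 rose and 6 fell of 12. The median log2 changes of these lists in control were 0.74, 0.90, 0.49, 0.96 and -0.72. At 50 µM they were 0.70, 0.88, 0.46, 1.2 and -1.17. The plot of named genes against control sets both changes against each other.

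**Figure D4:**
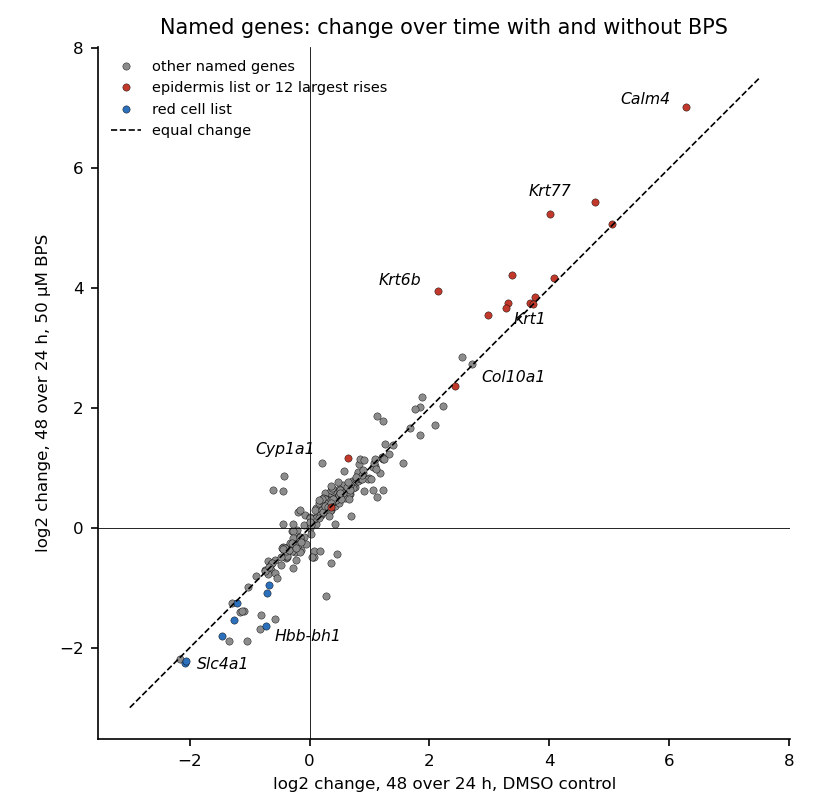
Log2 change from 48 over 24 h of the named genes in DMSO control (horizontal axis) and at 50 µM BPS (vertical axis), each from its own 10 libraries. The dashed line is equal change, red points belong to the epidermis list or the 12 largest rises and blue points to the red cell list. Cyp1a1 lies at 0.20 in control and 1.09 at 50 µM.

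Whether the change over time itself differed was tested as an interaction over the 30 libraries. No gene of 17863 passed for 50 µM BPS against DMSO (0 calls, 0.0%), with 604 at an unadjusted p below 0.05 (3.38%), and 0 passed with DESeq2 (598 unadjusted) or limma-voom (627 unadjusted), or under the other scalings. None passed for 50 against 10 µM either, with 415 at an unadjusted p below 0.05 (2.32%). Without library 5 of 24 h at 50 µM 1 gene passed for 50 µM against DMSO: Ache, acetylcholinesterase, named here after its value was seen, at -1.14 ± 0.18 (adjusted p = 0.00831). With all libraries Ache stood at 14.8, 12.5, 16.1, 16.6 and 4.79 CPM at 24 h and 6.47, 9.87, 8.89, 9.74 and 8.14 CPM at 48 h, and library 5 of 24 h was below the 4 others of its time and all of 48 h.

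The 5 smallest p-values against DMSO, none of which passed, belonged to Sspn, Mmrn1, Plat, Cyp1a1 and Cdhr4. For Cyp1a1 the difference of the log2 change was 0.90 (95% interval 0.39 to 1.42, unadjusted p = 0.00103), with an adjusted p of 1. Control levels of Cyp1a1 were 2.98 ± 0.285 CPM at 24 h and 3.44 ± 0.583 CPM at 48 h, and those at 10 µM 2.85 ± 0.849 CPM at 24 h and 5.48 ± 0.849 CPM at 48 h. Sspn, a protein of the dystrophin complex, gave 0.31 (95% interval 0.14 to 0.48, unadjusted p = 0.000676), Mmrn1 -0.94 (95% interval -1.46 to -0.43, unadjusted p = 0.000681) and Plat, the tissue plasminogen activator, -0.55 (95% interval -0.86 to -0.24, unadjusted p = 0.00096). Among skeletal genes the intervals include 0 and exclude large differences for Col2a1, 0.08 (95% interval -0.15 to 0.30, unadjusted p = 0.488), and Col1a1, -0.09 (95% interval -0.31 to 0.14, unadjusted p = 0.431), but are wide for Col10a1, 0.04 (95% interval -1.18 to 1.27, unadjusted p = 0.944), and Ibsp, 0.30 (95% interval -0.58 to 1.18, unadjusted p = 0.488). Ihh changed by 0.26 at 50 µM and -0.19 in control, a difference of 0.46 (95% interval 0.06 to 0.85, unadjusted p = 0.0253) that did not pass.

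For cholesterol genes the estimate of that difference was above 0 in 24 of 26, with a median of 0.23, and 9 of 26 had an unadjusted p below 0.05, where 3.38% of all genes did. None passed after adjustment. Among the largest were Idi1, an isoprenoid enzyme, at 0.51 (95% interval 0.17 to 0.86, unadjusted p = 0.00478), and Lss, which closes the sterol rings, at 0.35 (95% interval 0.12 to 0.57, unadjusted p = 0.00348), both named after their values were seen. Hmgcs1 gave 0.24 (95% interval 0.03 to 0.45, unadjusted p = 0.0275). In control Hmgcs1 stood at 161 ± 15.6 CPM at 24 h and 132 ± 6.72 CPM at 48 h. These genes share libraries, so their estimates are not independent.

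**Figure D5:**
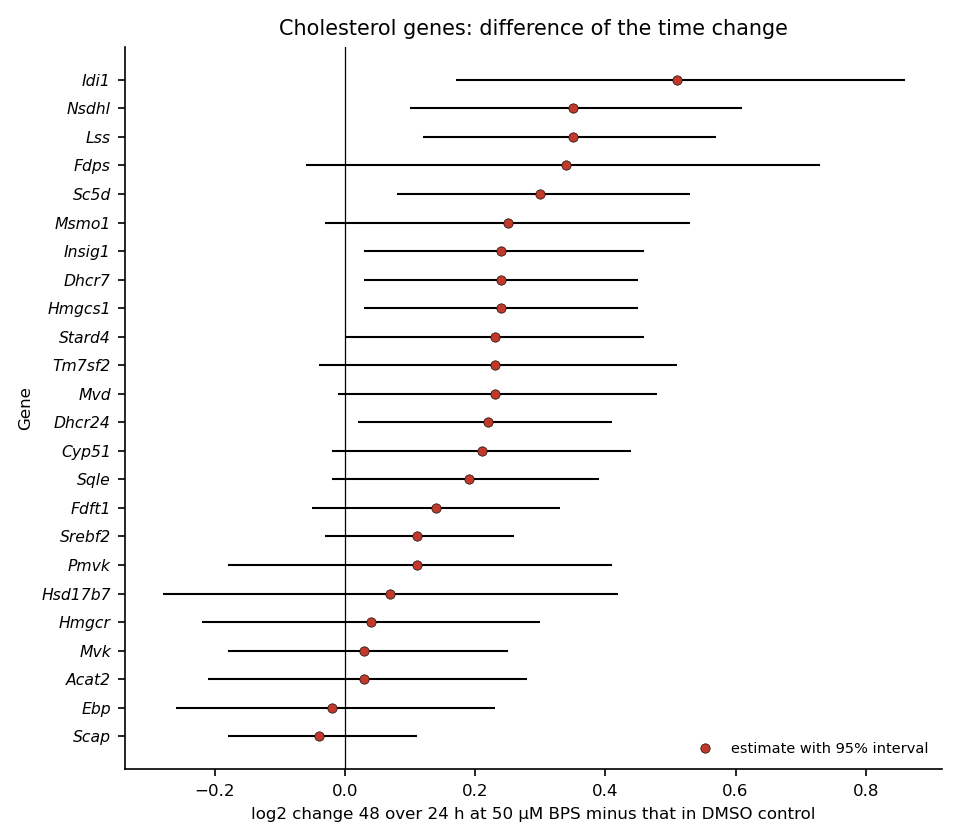
Difference between the log2 change from 48 over 24 h at 50 µM BPS and that in DMSO control for 24 of the 26 genes of cholesterol synthesis and uptake, as estimates (points) with 95% intervals (lines). Positive values mean a smaller fall or a larger rise at 50 µM. Of the 24 estimates plotted 22 lie above 0, from Idi1 at 0.51 down, and no gene passed the adjusted threshold.

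Ranked by the change in CPM, which also depends on transcript length, matrix and imprinted genes had the largest gains, a view chosen after the values were seen. The 10 largest gains in mean CPM were Col2a1, Col1a1, Sparc, Col1a2, H19, Col11a2, Dlk1, Col3a1, Meg3 and Col9a1, of which 7 encode matrix proteins and 3 (H19, Dlk1 and Meg3) are imprinted genes. Dlk1, a membrane protein of growing tissues, went from 936 ± 56.6 to 1687 ± 28.4 CPM with no overlap (log2 change 0.85 ± 0.048, adjusted p = 3.2e-11). Among genes that fell, the 10 largest losses were Hbb-y, Nedd4, Vcan, Chd3, Hba-a1, Hnrnpa1, Sox11, Dnm3os, 3110039I08Rik and Hnrnph1. Vcan, the proteoglycan of young mesenchyme, fell from 826 ± 75.7 to 574 ± 25.0 CPM, and Sox11, a factor of immature cells, from 461 ± 44.5 to 263 ± 13.2 CPM.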

How the data were processed

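RNA of mouse forelimb buds was measured by poly-A sequencing, and 30 libraries of 24 and 48 h were used. Per the submitters' processing notes the tools were CASAVA 1.8, STAR 2.5, HTSeq 0.6.1 and DESeq2 (listed as version 2), with the mm10 build, and whether reads were counted by strand is not given in the sources used here. Values used here are raw read counts per gene, as deposited by the authors in tables that pair each BPS group with its control. Tables were joined by gene identifier to 33414 genes, and a gene missing from a table was set to 0 (its largest count in another table was 1 read). Control counts present in more than 1 table (579235) never differed.

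Counts were scaled by TMM, filtered with filterByExpr and tested with edgeR 4.0.16 (quasi-likelihood, robust, in R 4.3.3), within the 10 libraries for each change over time and over 30 libraries for interactions, with Benjamini-Hochberg adjustment. limma 3.58.1 and DESeq2 1.42.0 were alternatives. Intervals are at 95%, and those of read ratios cover counting error only. Depth was 15.2 to 23.1 M reads, so 3 reads were 0.135 to 0.188 CPM in the libraries at 50 µM. The fits were tested on simulated data. Every pair of replicates differed by more than sampling noise (lowest chi-square per degree of freedom 4.63).

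Members and lists were chosen with earlier results of these data known. Named were the 12 largest rises and falls with a mean of at least 1 CPM and a symbol that is no gene model name, up to 4 genes of each of 44 lists by smallest adjusted p, a panel of 30 genes, and the 5 smallest p-values of each interaction. Other genes, such as list members that did not pass, were named after their values were seen. Alternatives were other tools, scalings, filters and fits, a replicate block and leaving out each library. The 3 h libraries were not used here. Promoters came from RefSeq (GRCm38.p6). Some named genes are not reported here.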

Additional observations from a re-analysis of the deposited data

Results flagged for a closer look

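For 153 genes named above, the 5 libraries of each time at 50 µM BPS were searched for a highest or lowest library whose gap to the nearest of the others exceeds Dixon's critical value. Of 306 groups of 5, 28 held such a library, where chance gives about 1 in 20 groups. Values are CPM, with that of the nearest other library after it. Library 1 of 24 h was high in Krt77 at 1.1 (0.185), Col10a1 at 37.1 (14.9), Bglap at 0.413 (0.105) and Wif1 at 46.7 (42) and low in Uty at 0 (20.3). Library 2 of 24 h was high in P4ha1 at 156 (126) and low in Mmp9 at 25.2 (31.3) and Ccng1 at 66.5 (72.6). Library 3 of 24 h was high in Hbb-bh1 at 14.3 (10.4). Library 5 of 24 h was high in Hmgcs1 at 234 (205), Hspa5 at 801 (748) and Esr1 at 1.31 (0.839) and low in Col22a1 at 13.5 (18.5), Col6a1 at 313 (385) and Col6a2 at 276 (365). Library 1 of 48 h was high in Gli3 at 176 (163) and Vcan at 618 (567) and low in Mmrn1 at 1.03 (1.39) and Tubb3 at 1.21 (1.57). Library 2 of 48 h was high in Aldoa at 545 (423), Tpi1 at 309.9 (255) and Col3a1 at 2677 (2383). Library 3 of 48 h was high in Hbb-y at 419 (359) and low in Col2a1 at 9137 (10229), Enpp1 at 52.7 (59.2) and Fgf2 at 52.1 (56.9). Library 5 of 48 h was high in Eda2r at 21.6 (16.5) and Cyp1b1 at 59.1 (48.5). The causes of these gaps were not tested.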

How the results depend on the processing

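The number of genes called at 50 µM (4715) was 4930 with DESeq2, 4695 with limma-voom, 4688 with RLE scaling, 4794 without the filter, 5100 with library size alone, 4203 in the fit of 30 libraries and 4083 to 4733 on leaving out each library. In control (2670) these were 3145, 2670, 2654, 2593, 2771, 3868 and 1957 to 2891, and at 10 µM (4013) they were 4306, 3969, 4016, 4090, 4467, 3948 and 3321 to 4322. With the replicate number as a block the counts were 4539, 3541 and 3543, and 0 for both interactions. The block ended the calls of Spp1 (adjusted p = 0.0671), Krt5 (0.0568) and Cma1 (0.0892) and moved the hypoxia rises from 4 to 12. Same-numbered libraries of 24 and 48 h correlated at -0.0156 to 0.279 at 50 µM (2 of 5 best with their own number), -0.0102 to 0.384 in control (3 of 5) and -0.235 to 0.094 at 10 µM (1 of 5), so the numbers were not taken to pair the times. These correlations lie within a dose and cannot show whether a number is shared across doses. Library 5 of 24 h had the highest mitochondrial share in each group (2.05% in control, 2.02% at 10 µM and 2.34% at 50 µM), and whether the number marks a shared batch was not tested. The interaction with DMSO gave 0 to 1 genes on leaving out each library and the other interaction 0 to 0, and the 1 gene (Ache) came without library 5 of 24 h at 50 µM; the cause was not tested. Among list counts, immediate early rises went from 7 to 11 without library 4 of 24 h and NRF2 rises from 5 to 8 without the filter. Splits of higher and lower calls under library size alone are 1387 of 2771 higher in control and 1891 of 4467 at 10 µM. Genes at a few reads are limited by depth.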

Other observations

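Hba-a2, 1 of 2 nearly identical alpha globin genes, stood at 103, 96.3, 128, 101 and 0.114 CPM at 24 h and 53.3, 0.0463, 0.0631, 38.5 and 0.293 CPM at 48 h. Library 5 of 24 h and libraries 2, 3 and 5 of 48 h were near 0 while Hba-a1 was at 353 to 641 CPM at 24 h and 211 to 263 CPM at 48 h, and the change did not pass (adjusted p = 0.255). Of the 12 mitochondrially encoded genes 0 passed, and 4 rose without the 3 libraries that stand apart. Ddx3y, a Y-linked gene, stood at 0, 47.4, 67.3, 52.6 and 52.6 CPM at 24 h and 56.0, 80.1, 78.0, 82.2 and 103 CPM at 48 h.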
